A study of Daucus carota with 10 samples.

Results

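The comparison described here set the purple phloem of a purple carrot (group F) against the whole taproot slice of the orange carrot ‘H13.360IND’ (group CT), with every listed locus entering and no gene chosen in advance. It used 4 of the 10 RNA-Seq libraries of the series, 2 biological replicates of F and 2 of CT. All were made from taproots of Daucus carota aged 120 days and grown in a greenhouse without further treatment. Each library came from taproots mixed within a cultivar, so the 2 replicates of a group measure the spread between mixtures and not between single roots. The sources name the purple cultivar differently: the sample titles place F in ‘Purple Haze’, and the series' design text places it in ‘Purple 68’, so the letters are used. Tissue and colour of F and CT are given alike by both sources. F and CT differ in cultivar, in tissue (phloem against a whole slice that holds phloem and xylem together) and in colour at once, and these 3 cannot be told apart in any value below. The xylem of the same purple cultivar (E) and the xylem and phloem of a second purple cultivar (G and H), with 2 libraries each, serve only to place single genes. The sources differ on the colour of both xylems, and H is purple in both.

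Anthocyanins are the red to purple pigments of black carrots, held in the vacuole as sugar-bearing and acylated cyanidin compounds. The pathway starts from phenylalanine, which is turned into an activated hydroxycinnamic acid by the phenylpropanoid entry enzymes. Chalcone synthase commits it to flavonoids, and a chain of isomerase, hydroxylases, reductase and dioxygenase leads to the coloured anthocyanidin. Glycosyltransferases, acyltransferases and a glutathione S-transferase finish and move the pigment, and a complex of MYB and bHLH proteins switches the genes on. Orange carrots owe their colour to carotenoids.

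The deposited unit is FPKM, fragments scaled by the length of the gene and by the total fragments of the library, so that levels can be set side by side between genes. The 4 libraries held between 13909841 and 17118787 fragments, and 36908 loci were listed, of which 36089 were annotated genes. Depth was therefore alike between the groups, and a gene with 3 fragments or fewer in a library is treated as being at the floor. Replicates differed more in F (SD of the difference of log2 values 0.66, r = 0.95 across genes) than in CT (SD 0.44, r = 0.98).

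The test took the 19712 genes whose group mean reached 1 FPKM in F or in CT. Of these, 5789 (29.4%) were differentially expressed genes (DEGs), 1532 of them higher in F (7.77% of the genes tested) and 4257 lower (21.6%). A DEG had a Benjamini-Hochberg adjusted p below 0.05 in limma, fitted to log2(FPKM + 1) of these 4 libraries, and a log2 (fold change) of 1 or more, up or down. Fold changes on this scale understate the change of low genes. Most of the few very large differences were rises. A log2 (fold change) of 5 or beyond was reached by 46 genes higher in F and by 16 genes lower in F. At 3 or beyond there were 235 higher and 142 lower, and at 2 or beyond the falls were more, with 624 higher and 715 lower. The balance of higher and lower DEGs depended on the scaling. The median gene stood at -0.41 in F relative to CT, and 26.5% of the DEGs were higher in F as deposited, 49.9% after quantile normalization and 49.3% after an adjustment for gene length. Both CT libraries were needed for any call, since 0 genes passed without CT replicate 1 (5363 at an unadjusted p below 0.05 with the same minimum fold change) and 0 without CT replicate 2 (5192 likewise).

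**Figure D1:**
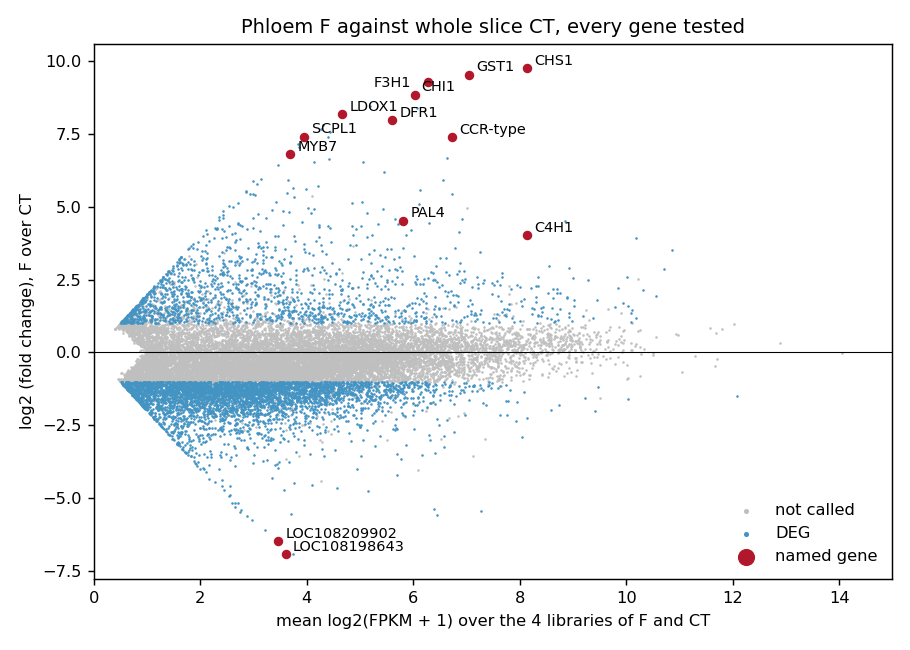
Each point is a gene tested in F against CT; the x axis is the mean log2(FPKM + 1) over the 4 libraries and the y axis the log2 (fold change) of F over CT, with DEGs in blue and named genes in red. The anthocyanin genes CHS1, GST1, F3H1 and CHI1 stand above a log2 (fold change) of 8, beyond the deepest fall at -6.93.

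The genes below carry the names of the study, which chose its list of structural genes with these libraries in hand. The list holds 21 genes. Of the 20 that were tested, 15 rose in F (75% beside 7.77% of all genes tested), 1 fell (5% beside 21.6%) and 4 did not pass the test, with a median log2 (fold change) of 4.12 against -0.41 for all genes tested. These counts were the same after quantile normalization and after the length adjustment. Since the study picked the list on these samples, it is not independent evidence of its direction.

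The study's own oligonucleotides for 5 of these genes are printed because they mark the transcripts, among near copies of each family, on which it based its check by quantitative PCR. All are given 5′ to 3′ with the forward primer first.
DcC4H forward: gtggaggccaacggaaatg
DcC4H reverse: cgtccgattgtgataccgaga
DcCHS forward: gtttaggcggatgtgtgaaaaatcg
DcCHS reverse: ctcctgtgtgcaaccaaccttc
DcDFR forward: gttatcaagcctaccgtacaggg
DcDFR reverse: catttctctcttatcaatttcacc
DcMYB7 forward: tgaagttttgaagccccttcc
DcMYB7 reverse: tgttgttaatgtcgttgccgc
DcMYB6 forward: ttagtggcatcctcaagtggttc
DcMYB6 reverse: actccggccatcatctcctac
They belong, in that order, to LOC108223289 (C4H1), LOC108200622 (CHS1), LOC108224780 (DFR1), LOC108213488 (MYB7) and LOC108192278 (MYB6), each of which was a DEG higher in F.

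At the entry to the pathway, 4 of the 5 listed genes rose. PAL4 (LOC108223317), a phenylalanine ammonia-lyase, which removes ammonia from phenylalanine, had 6.15 and 18.2 FPKM in CT and 182 and 389.9 FPKM in F, a log2 (fold change) of 4.51 ± 0.60 (SE, limma adjusted p = 0.0101). C4H1, the cinnamate 4-hydroxylase LOC108223289, had 53.9 and 88.0 FPKM in CT and 951 and 1344 FPKM in F, a log2 (fold change) of 4.02. Both genes were thus already on in the orange slice, and no CT library reached an F library. The 4-coumarate-CoA ligase 4CL3-1 (LOC108227923), which makes the activated acid, rose less, from 13.6 and 24.7 FPKM to 87.1 and 129.8 FPKM (log2 (fold change) 2.47). A second ligase gene, LOC108206420, was low in both groups, at 0.174 and 0.820 FPKM in CT and 6.25 and 5.02 FPKM in F. The third, LOC108223993, had 8.00 and 6.20 FPKM in CT and 7.18 and 4.76 FPKM in F and did not pass the test (adjusted p = 0.524).

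The 7 early flavonoid genes all rose, with a median log2 (fold change) of 8.37. CHS1 (LOC108200622), a chalcone synthase, had 8.40 and 8.72 FPKM in the CT libraries and 7591 and 8899 FPKM in the F libraries. The ratio of the means was 963, and the log2 (fold change) of 9.75 ± 0.18 (SE, limma adjusted p = 0.000666) was the largest rise among all annotated genes tested. By FPKM, CHS1 ranked 3 and 2 among all loci in the F libraries and 10775 and 10715 in the CT libraries. It alone took 1.05% and 1.23% of all fragments in F, against 0.0012% in each CT library. CT was not empty, since CHS1 had 162 and 207 fragments there.

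The other chalcone synthase genes in the list rose to far lower levels. CHS2 (LOC108192262) had 0.476 and 0.129 FPKM in CT, which is 3 fragments and 1 fragment, and 15.3 and 31.8 FPKM in F. CHS9 (LOC108212629) had 1.72 and 2.09 FPKM in CT and 15.7 and 33.8 FPKM in F. Both differed from CHS1 in E and in H. In E, at most 1.17 FPKM was seen for either gene, and in H at most 3.57 FPKM, whereas CHS1 stood at 4958 FPKM or more in all E and H libraries. The tests of F against H (adjusted p = 0.0563 for CHS2 and 0.0692 for CHS9) and of F against E (adjusted p = 0.050 and 0.0690) did not pass the threshold.

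The chalcone isomerases, which close the ring of the chalcone, were CHI1 (LOC108220831) and CHI2 (LOC108197475). CHI1 had 1.76 and 2.36 FPKM in CT and 1155 and 1667 FPKM in F, a log2 (fold change) of 8.84. CHI2 had 2.79 and 2.63 FPKM in CT and 1020.4 and 1479.9 FPKM in F, a log2 (fold change) of 8.37. The pair thus had nearly the same levels in F. F3H1 (LOC108213382), a flavanone 3-dioxygenase, rose from 2.58 and 1.66 FPKM to 1804 and 2082 FPKM (ratio of the means 915). F3′H1 (LOC108216209), which adds the second hydroxyl of the cyanidin ring, rose from 0.816 and 0.853 FPKM to 163 and 171 FPKM. Its level in F was far below that of F3H1 on the same per-length scale, at a mean of 167 ± 5.28 against 1943 ± 197 FPKM (SD, n = 2).

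Of 6 genes grouped as late steps, a flavonol synthase-like gene among them, 4 rose. DFR1 (LOC108224780), the reductase for dihydroflavonols, had 1.84 and 2.31 FPKM in CT and 584 and 999.9 FPKM in F (log2 (fold change) 7.96 ± 0.30). LDOX1 (LOC108209615), the dioxygenase that makes the coloured anthocyanidin, had 0.454 and 0.533 FPKM in CT, or 9 and 13 fragments, and 342 and 542 FPKM in F (log2 (fold change) 8.18). The other 2 genes that rose reached lower levels in F. A flavonol synthase-like gene, LOC108197342, had 0 and 0.251 FPKM in CT and 49.4 and 91.8 FPKM in F. In E it had 0.475 and 0.763 FPKM, and F exceeded E by 5.41 ± 0.45 on the log2 scale (limma adjusted p = 0.0245). An LDOX-like gene, LOC108198717, had 0.339 and 0.597 FPKM in CT and 15.2 and 36.7 FPKM in F.

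The DFR-like genes LOC108224131 and LOC108224331 did not follow DFR1. LOC108224131 had 22.1 and 23.2 FPKM in CT and 17.9 and 7.99 FPKM in F, with an adjusted p of 0.132. LOC108224331 had 21.4 and 14.6 FPKM in CT and 20.8 and 15.4 FPKM in F, with an adjusted p of 0.961. In the orange slice both were more abundant than DFR1, and in F both were far below it.

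Of the 3 genes that the study named as anthocyanidin 3-O-glucosyltransferases, which attach a sugar to the pigment, no gene rose. LOC108220258 fell from 16.1 and 9.24 FPKM in CT to 0.105 and 0.225 FPKM in F, a log2 (fold change) of -3.51 (adjusted p = 0.00752). LOC108210672 had 2.10 and 1.74 FPKM in CT and 0.870 and 5.63 FPKM in F, so that the F libraries lay on both sides of CT. The third gene was below the filter in both groups.

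SCPL1 (LOC108214129), a serine carboxypeptidase-like gene that the study put forward as the acyltransferase, had 0.256 and 0.138 FPKM in CT, from 6 and 4 fragments. In the F libraries it had 199.8 and 200.4 FPKM, a log2 (fold change) of 7.39 (adjusted p = 0.000869). GST1 (LOC108205254), a glutathione S-transferase of the class that carries anthocyanins towards the vacuole, had 4.07 and 3.66 FPKM in CT and 3268 and 3969 FPKM in F. Its ratio of means, 936, was close to that of CHS1. Of the 8 glutathione S-transferase genes listed by the study, 6 rose (75% beside 7.77%) and 1 fell (12.5% beside 21.6%), and 5 rose after quantile normalization or after the length adjustment. The study listed them as DEGs of these libraries, so the list is not independent evidence of its direction. LOC108213210 followed GST1 at 0 and 0.196 FPKM in CT and 21.5 and 52.0 FPKM in F. LOC108195352 fell from 3.29 and 2.46 FPKM to 0.472 and 0.272 FPKM. The remaining rises had a log2 (fold change) of 2.64 or less, and the smallest, that of LOC108199307 from 41.5 and 56.7 FPKM to 84.5 and 151 FPKM, was called in 3 of 7 alternatives.

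Together, the 21 structural genes, SCPL1 and GST1 took 0.0275% and 0.0360% of all fragments in the CT libraries and 2.33% and 2.95% in the F libraries. The 10 most abundant loci of any kind took 4.54% and 4.58% in CT and 7.70% and 6.36% in F.

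**Figure D2:**
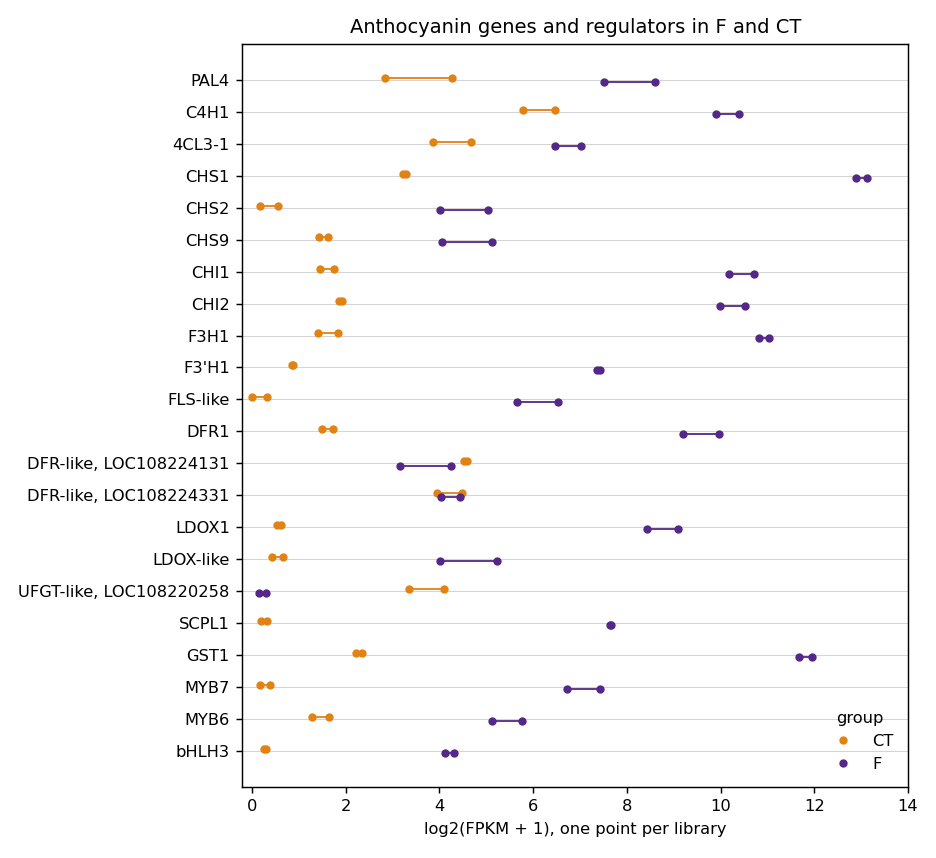
Levels of 22 anthocyanin genes and regulators as log2(FPKM + 1) on the x axis, with 1 point per library, CT in orange and F in purple, and a line joining the 2 replicates. The F points lie to the right of the CT points for all but the DFR-like genes LOC108224131 and LOC108224331 and the UFGT-like gene LOC108220258.

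Among the regulators listed, MYB7 rose most, which the study named as being of the MYB113 type, as it did MYB6. MYB7 (LOC108213488) had 0.127 and 0.309 FPKM in CT, or 2 and 6 fragments, and 105 and 172 FPKM in F (log2 (fold change) 6.80 ± 0.30, adjusted p = 0.00236). MYB6 (LOC108192278) had 1.42 and 2.11 FPKM in CT and 33.8 and 53.2 FPKM in F (log2 (fold change) 3.98, adjusted p = 0.00569). MYB113-type proteins activate anthocyanin genes in Arabidopsis. The levels of both genes in H were unlike that of CHS1. MYB7 had at most 0.338 FPKM and MYB6 at most 0.0552 FPKM in the H libraries, although CHS1 had 6252 and 8503 FPKM there. F exceeded H by 6.76 on the log2 scale for MYB7 (adjusted p = 0.00475) and by 5.40 for MYB6 (adjusted p = 0.0114), and by 0.17 for CHS1 (adjusted p = 0.925). In F against H, 1.41% of the genes tested were called in either direction, and in F against E 0.372%. Without any 1 of the F or H libraries, no gene passed in F against H.

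The bHLH gene that the study called DcbHLH3 (LOC108204485, bHLH protein A) had 0.198 and 0.230 FPKM in CT and 16.4 and 18.8 FPKM in F (log2 (fold change) 3.94, adjusted p = 0.00345). In H it had 19.8 and 11.7 FPKM, so that F and H overlapped. Proteins of this type pair with MYB activators at anthocyanin promoters. LOC108222674, of the bHLH118 type, was the only other bHLH gene of the 19 tested to rise, from 0.0711 and 0.173 FPKM to 5.34 and 4.44 FPKM. The bHLH list as a whole held 2 genes that rose and 5 that fell, shares of 10.5% and 26.3% beside 7.77% and 21.6% for all genes tested. This list too was drawn by the study from DEGs of these libraries. The falls had a log2 (fold change) between -1.84 and -1.27, on a scale that understates the change of low genes. The largest on this scale was that of LOC108206705 (bHLH90-like), from 5.83 and 5.77 FPKM to 0.830 and 0.977 FPKM.

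Of 17 MYB genes tested, 6 rose and 6 fell (35.3% each, beside 7.77% and 21.6% of all genes). The study listed these genes as DEGs of comparisons that include F, so the shares are not independent of these libraries. Besides MYB6 and MYB7, LOC108194193, named as a MYB6-like repressor, rose from 1.69 and 1.11 FPKM to 12 and 9.48 FPKM. The largest falls were those of LOC108193779 (MYB1R1-like), from 60.9 and 73.9 FPKM to 3.29 and 6.92 FPKM, and LOC108220609 (Myb4-like), from 22.2 and 15.7 FPKM to 0.655 and 1.45 FPKM. MYB4 of Arabidopsis represses phenylpropanoid genes. LOC108220417 (MYB48-like) fell from 36.9 and 55.4 FPKM to 4.90 and 3.42 FPKM. The groups did not overlap for these 3 genes, and their log2 (fold change) lay between -3.55 and -3.18.

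The phenylpropanoid pathway branches after the entry enzymes towards caffeic, ferulic and sinapic acid derivatives, which serve both as monomers of lignin and as the acyl groups that black carrot anthocyanins carry. The genes for this branch were taken from the pathway lists printed by the study for other pairs of groups, so that the F libraries took part in choosing many of them, and enzyme names come from the Arabidopsis gene matched by the study. Of 40 phenylpropanoid genes tested, 20 rose (50% beside 7.77% of all genes) and 4 fell (10% beside 21.6%), with a median log2 (fold change) of 1.11. The list is wider than this branch, so its shares are not those of the branch alone. It also holds glucosidase genes and genes matched to peroxidases, such as LOC108221035, which rose, and LOC108206954, which fell.

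In several steps of this branch, genes matched to the same Arabidopsis gene differed from each other. The cinnamoyl-CoA reductase gene LOC108227809 had 6.04 and 8.61 FPKM in CT and 1260.3 and 1489 FPKM in F (log2 (fold change) 7.38, adjusted p = 0.00113). The ferulate 5-hydroxylase gene LOC108225223, which leads to sinapic compounds, had 0.426 and 0.242 FPKM in CT and 366 and 238 FPKM in F (log2 (fold change) 7.80). The caffeic acid O-methyltransferase gene LOC108210405 rose from 12.1 and 10.2 FPKM to 778 and 699 FPKM. Of its relatives with the same match, LOC108215577 rose less, from 7.21 and 11.9 FPKM to 37.8 and 35.3 FPKM (log2 (fold change) 1.87, adjusted p = 0.0115), and LOC108214501 had 5.92 and 24.4 FPKM in CT and 8.11 and 8.70 FPKM in F and did not pass the test.

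LOC108215217, matched to the Arabidopsis aldehyde dehydrogenase that makes ferulic and sinapic acid from their aldehydes, rose from 9.28 and 8.88 FPKM to 391 and 581 FPKM. Its relative LOC108205596 had 34.3 and 8.14 FPKM in CT and 2.83 and 2.90 FPKM in F and did not pass the test (adjusted p = 0.0508). The caffeoyl-CoA methyltransferase gene LOC108207577 rose from 12.3 and 18.3 FPKM to 520.3 and 915 FPKM. Its relative LOC108203640 fell from 9.43 and 2.61 FPKM to 0.589 and 0 FPKM, with a limma adjusted p of 0.0348. The call held in 4 of 7 alternatives, with adjusted p between 0.0157 and 0.0754, and was lost without the filter on low values, after quantile normalization and by voom on recovered fragments.

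The remaining steps were mixed. The coumarate 3-hydroxylase gene LOC108227431 rose from 7.75 and 11.2 FPKM to 215 and 284 FPKM, and the caffeoyl shikimate esterase gene LOC108194156 from 0.683 and 0.879 FPKM to 49.6 and 80.2 FPKM. The shikimate hydroxycinnamoyl transferase gene LOC108223132, whose enzyme makes the substrate of the hydroxylase, had 21.3 and 31.4 FPKM in CT and 30.0 and 33.3 FPKM in F, with a log2 (fold change) of 0.28 ± 0.24 (SE, adjusted p = 0.383). A glucosidase of glycoside hydrolase family 3, LOC108210826, rose from 0.233 and 0.474 FPKM to 274 and 271 FPKM (log2 (fold change) 7.67). The β-glucosidase-type gene LOC108193059 fell from 90.0 and 74.3 FPKM to 21.8 and 26.1 FPKM.

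Of 6 genes tested for aromatic amino acid metabolism, which supplies phenylalanine, 4 rose (66.7% beside 7.77%) and 0 fell (beside 21.6%), again from a list the study had drawn from these libraries. The arogenate dehydratase gene LOC108210565, which completes phenylalanine, rose from 2.89 and 3.53 FPKM to 59.5 and 113 FPKM (log2 (fold change) 4.31). The chorismate mutase gene LOC108196652, matched to the plastid enzyme of Arabidopsis, rose from 1.03 and 2.04 FPKM to 16.2 and 9.15 FPKM. The chorismate mutase gene LOC108224600, matched to the cytosolic enzyme, had 69.0 and 45.4 FPKM in CT and 48.1 and 61.4 FPKM in F, so that the groups overlapped.

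**Figure D3:**
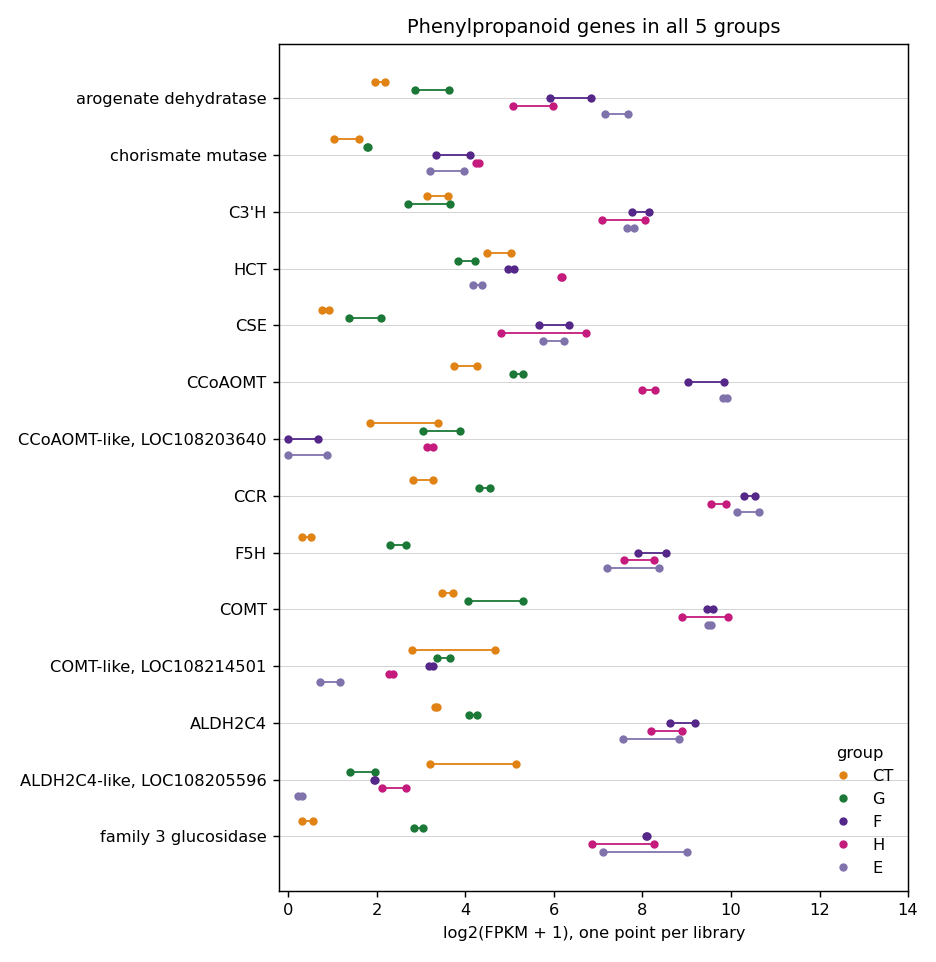
Levels of 14 genes for aromatic amino acid supply and hydroxycinnamic acid metabolism as log2(FPKM + 1) on the x axis, with 1 point per library and a line joining the replicates of each of the 5 groups. F, H and E lie far to the right of CT and G for genes such as the CCR-type gene LOC108227809, and not for HCT (LOC108223132) or the relatives marked by their locus number.

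Some genes with no name in the files or in the reference table behaved like the anthocyanin genes. LOC108213096 had 0.656 and 1.24 FPKM in CT and 396 and 1161 FPKM in F (log2 (fold change) 8.46), and LOC108200979 had 0.814 and 0.367 FPKM in CT and 228 and 388 FPKM in F (7.56). Ranked by Pearson correlation with CHS1 over the log2 values of all 10 libraries, the 5 leading genes were LOC108205905, GST1 (LOC108205254), LOC108200979, F3H1 (LOC108213382) and LOC108225223, with r between 0.9958 and 0.9967. These libraries include the 4 compared here, so the likeness restates in part the difference between F and CT. LOC108205905, matched to an alcohol dehydrogenase-like gene of Arabidopsis, had 0.261 and 0.247 FPKM in CT and 124 and 216 FPKM in F.

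The pathway lists from here on were also taken from those printed by the study for DEGs of other pairs of groups. Pairs that include F were among these, so the shares are not independent of the F libraries. Of 9 genes listed for DNA replication, 6 fell in F (66.7% beside 21.6% of all genes) and 1 rose (11.1% beside 7.77%). The genes that fell were those for MCM2 (LOC108200094), MCM3 (LOC108197264), MCM5 (LOC108216116), MCM6 (LOC108217507) and MCM7 (LOC108209878), subunits of the replicative helicase, and the single-strand binding subunit RPA2 (LOC108194489). MCM7 went from 6.24 and 5.68 FPKM in CT to 0.90 and 1.44 FPKM in F (log2 (fold change) -1.69, adjusted p = 0.0114). The 6 genes had between 4.09 and 9.28 FPKM in the CT libraries and between 0.669 and 2.59 FPKM in the F libraries, so no library of one group reached the other. Only 3 of the 9 genes fell after quantile normalization and 2 after the length adjustment. The gene that rose, LOC108192512, was at 0 in both CT libraries and had 3.10 and 1.85 FPKM in F (adjusted p = 0.0124).

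Hormone signalling genes changed in both directions. Of 34 tested, 7 rose (20.6% beside 7.77%) and 11 fell (32.4% beside 21.6%). Of the 10 Aux/IAA genes among them, which repress auxin responses, 6 fell and 1 rose. LOC108204025, matched to IAA4, fell from 11.9 and 6.53 FPKM to 0.302 and 0.111 FPKM, and LOC108222038, matched to IAA17, from 55.3 and 77.8 FPKM to 14.9 and 11.1 FPKM. LOC108201663, matched to IAA7, was at 0 in both CT libraries and rose to 1.27 and 2.34 FPKM (adjusted p = 0.0178). Of the 3 type-A response regulators of cytokinin signalling, 1 fell, 1 rose and 1 did not pass. LOC108206509, matched to ARR3, fell from 20.9 and 26.3 FPKM to 2.18 and 2.26 FPKM, and LOC108222091, matched to ARR17, rose from 1.5 and 2.66 FPKM to 7.18 and 6.20 FPKM (adjusted p = 0.0222). The D-type cyclin gene LOC108225757 of the same list, which promotes entry into the cell cycle, fell from 10.3 and 11.4 FPKM to 1.34 and 1.44 FPKM. The largest rise was that of LOC108226581, matched to JAZ1, a repressor in jasmonate signalling that jasmonate itself induces, from 6.81 and 4.69 FPKM to 174 and 196 FPKM (log2 (fold change) 4.80, adjusted p = 0.00245). LOC108222964, matched to EBF1, which restrains ethylene signalling, rose from 0.676 and 6.88 FPKM to 40.8 and 62.8 FPKM, and the CT replicates of this gene differed by more than most.

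Among 20 tested genes for protein processing in the endoplasmic reticulum, 6 rose (30% beside 7.77%) and 4 fell (20% beside 21.6%). The 6 that rose were all matched to small heat shock proteins, which hold unfolded proteins, and the other 4 of the 10 small heat shock protein genes did not pass the test. LOC108225801 (HSP18-type) rose from 1.66 and 0.781 FPKM to 56.8 and 68.5 FPKM, and LOC108225374 (HSP17.6-type) from 0.573 and 0.266 FPKM to 30.8 and 27.2 FPKM. LOC108192288 (HSP22-type) rose from 2.2 and 0.128 FPKM to 28.6 and 70.5 FPKM. Of 5 genes matched to HSP70 or HSP90, 2 fell and 3 did not pass the test. The HSP70 gene LOC108218630 fell from 179 and 167 FPKM to 14.2 and 23.3 FPKM, and the HSP90-type gene LOC108219006 from 65.4 and 54.5 FPKM to 18.3 and 17.9 FPKM, whereas the HSP90 gene LOC108227515 had 14.9 and 9.46 FPKM in CT and 8.60 and 17.6 FPKM in F (adjusted p = 0.924). F was above H for LOC108225801 (adjusted p = 0.0275) and LOC108192288 (adjusted p = 0.0390) and below H for the HSP70 gene (adjusted p = 0.0157). The small heat shock protein genes did not all lie the same way, since F was below H for LOC108211582 (adjusted p = 0.0336). This gene had 2.53 and 2.61 FPKM in F and 107 and 31.7 FPKM in H.

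Of the 5 genes listed for carotenoids, 4 fell (80% beside 21.6%) and 0 rose (beside 7.77%). None of those that fell makes carotenoids. LOC108220601 and LOC108220121 are matched to the dioxygenases NCED3 and NCED5, which cleave carotenoids towards abscisic acid, LOC108215310 to CCD8 of strigolactone synthesis and LOC108210231 to CYP707A2, which degrades abscisic acid. LOC108220601 went from 14.5 and 33.6 FPKM to 7.42 and 5.66 FPKM. Only 1 of the 4 calls held after quantile normalization and 1 after the length adjustment.

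In primary metabolism, 4 of 19 genes for starch and sucrose rose (21.1% beside 7.77%) and 9 fell (47.4% beside 21.6%). The β-amylase gene LOC108210017, matched to the plastid enzyme that degrades starch, fell from 192 and 206 FPKM to 65.7 and 50.6 FPKM. A sucrose synthase gene, LOC108196194, rose from 0.200 and 0.183 FPKM to 20.3 and 12.6 FPKM. A pectin methylesterase gene, LOC108204017, fell from 44.3 and 45 FPKM to 7.28 and 1.2 FPKM. With the length adjustment the split turned to 8 higher and 4 lower.

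Of 10 genes tested from the terpene list, 2 rose (20% beside 7.77%) and 2 fell (20% beside 21.6%). The list holds terpene synthases, which make the volatile compounds of carrot, and also other genes. Its shares are therefore not those of the synthases alone. LOC108220105, matched to a 1,8-cineole synthase, rose from 4.44 and 2.15 FPKM to 25.6 and 26.0 FPKM and was also above H (adjusted p = 0.0213) and E (adjusted p = 0.0358). LOC108205231, matched to a sesquiterpene synthase, fell from 58.8 and 15.8 FPKM to 0.0678 and 0.0935 FPKM, or 2 and 3 fragments. Of 5 photosynthesis genes, 2 rose (40% beside 7.77%), with LOC108205285 (PsbQ) going from 119 and 127 FPKM to 324 and 368 FPKM. In LOC108214617 (PsbR) the F replicates stood at 119.8 and 698 FPKM against 119 and 111 FPKM in CT, and the gene did not pass.

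Many genes that differed between the xylem G and the phloem H also differed between F and CT. The planned marker lists for xylem, phloem and periderm could not be formed, because the reference table gives no product names, so sets from other libraries took their place. Of 189 genes higher in the xylem G than in the phloem H (1.01% of the genes tested there), 187 were tested here. Of these, 110 were lower in F (58.8% beside 21.6% of all genes tested) and 2 higher (1.07% beside 7.77%). Their median log2 (fold change) was -1.59, against -0.41 for all genes tested. Of 132 genes higher in H than in G (0.705%), 131 were tested. Of these, 82 were higher in F (62.6% beside 7.77%) and 6 lower (4.58% beside 21.6%), with a median of 1.99. These sets used no library of F or CT and kept their direction after quantile normalization (medians -1.32 and 2.12) and after the length adjustment (-1.33 and 1.99), but G and H can differ in colour as well as in tissue, and the sets hold anthocyanin genes. Whether fewer xylem cells or less RNA per cell lies behind a lower gene cannot be told apart in bulk tissue. The part of tissue content in the single results above was not tested.

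Single markers gave a mixed picture. Of 4 genes listed for cutin, suberin and wax, which coat the outer tissues, 2 rose (50% beside 7.77%) and 1 fell (25% beside 21.6%). LOC108221074, matched to the feruloyl transferase of suberin, had 0.135 and 0.329 FPKM in CT and 3.25 and 2.30 FPKM in F and rose (adjusted p = 0.0130), and LOC108219920, matched to CYP86A1 of suberin synthesis, had 0.717 and 0.612 FPKM in CT and 2.14 and 2.39 FPKM in F with a log2 (fold change) of 0.97, just under the minimum. LOC108215276, matched to CYP86A2 of cutin synthesis, rose from 0.201 and 0.626 FPKM to 4.09 and 2.03 FPKM. LOC108224965, matched to CER1 of wax synthesis, fell from 3.79 and 1.93 FPKM to 0 in both F libraries (adjusted p = 0.0139). LOC108225351, named by the study for APL, a phloem identity factor in Arabidopsis, had 1.27 and 1.70 FPKM in CT and 0.333 and 0.268 FPKM in F. The difference, -0.93 on the log2 scale, was not called, and the gene was highest in the xylem G, at 4.87 and 5.83 FPKM. In the phloem H this gene had only 0.21 and 0.28 FPKM. Since it was not higher in the phloem H than in the xylem G, it cannot tell how much phloem F or CT held.

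**Figure D4:**
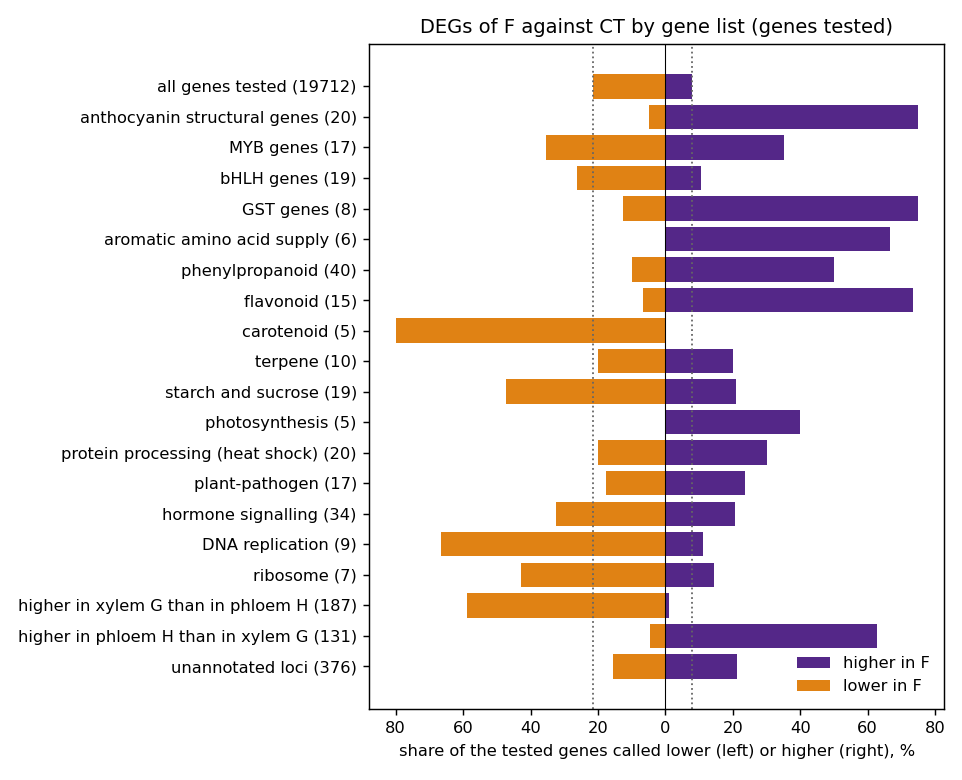
Share of the tested genes of each list that were called higher in F (purple, to the right) or lower in F (orange, to the left), in percent, with the number tested in brackets and dotted lines at the shares for all genes, 7.77% and 21.6%. The anthocyanin, flavonoid and glutathione S-transferase lists reach 73.3% or more on the right. On the left, the carotenoid list reaches 80% and DNA replication 66.7%.

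Some genes were on in one group and at the floor in the other. Of the genes lower in F, 320 had 3 fragments or fewer in both F libraries. In 257 of these both E libraries were at the floor too, against 102 for both H libraries and 69 for both G libraries. E is the xylem of the same purple cultivar as F. The shares of all genes tested at the floor in E, G and H were not counted, so these counts have no background beside them. The deepest falls among the annotated genes were of this kind. LOC108211939 had 119.8 and 177 FPKM in CT and 0.363 and 0.111 FPKM in F, or 3 fragments and 1 fragment, and it had between 90.8 and 295 FPKM in the G and H libraries. LOC108209902, matched to a ribosomal protein gene of the large subunit, had 115 and 91.9 FPKM in CT and 0.114 and 0.210 FPKM in F, and F was below H by 7.62 on the log2 scale (adjusted p = 0.00475).

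LOC108198643, with the deepest fall of all at -6.93, had 89.4 and 198 FPKM in CT and 0 and 0.214 FPKM in F. Elsewhere it was split within groups, at 109.6 and 0 FPKM in G and 0.234 and 99.4 FPKM in H. It therefore varied between replicates of one tissue and cultivar by as much as between F and CT. In the other direction, 240 genes higher in F had 3 fragments or fewer in both CT libraries, and 34 of these were at the floor in both E libraries, 119 in both G and 98 in both H. These counts likewise lack a background.

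Splits between replicates were also seen inside F. At 10 FPKM or more in one F library and 3 fragments or fewer in the other, there were 13 loci high in replicate 1 and 13 high in replicate 2, against 3 and 2 in CT. LOC108209070, matched to a ribosomal protein gene, had 167 and 1.64 FPKM in the F libraries and 76.1 and 76.9 FPKM in CT. LOC108195143, matched to another ribosomal protein gene, had 34.1 and 0.348 FPKM in F and 0 and 4.36 FPKM in CT. Neither gene was called, and both were high in all G and H libraries, at 36.1 FPKM or more.

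Loci outside the annotation leaned the other way from annotated genes. Of those listed, 376 were tested, of which 80 were higher in F (21.3% beside 7.77%) and 58 lower (15.4% beside 21.6%), with a median log2 (fold change) of 0.20. Their median remained above that of all genes after quantile normalization (0.60 against -0.10) and after the length adjustment (0.20 against -0.05).

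The difference from CT followed gene length. In the shortest of 5 equal classes of genes (up to 1019 bases) the median log2 (fold change) of F over CT was 0.17, with 579 genes higher and 461 lower. In the longest class (from 2449 bases) it was -0.95, with 74 genes higher and 1753 lower. The medians of the 3 classes between them were -0.12, -0.33 and -0.56. E, G and H showed the same order against CT, from -0.12, 0.11 and 0.12 in the shortest class to -0.81, -0.72 and -1.15 in the longest. The 4 purple-cultivar groups share the CT libraries in these values. The part of gene length in the counts of lower genes was not tested beyond the adjustment, under which 3448 DEGs were called, 1699 higher and 1749 lower, and 3021 of them were DEGs before it.

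**Figure D5:**
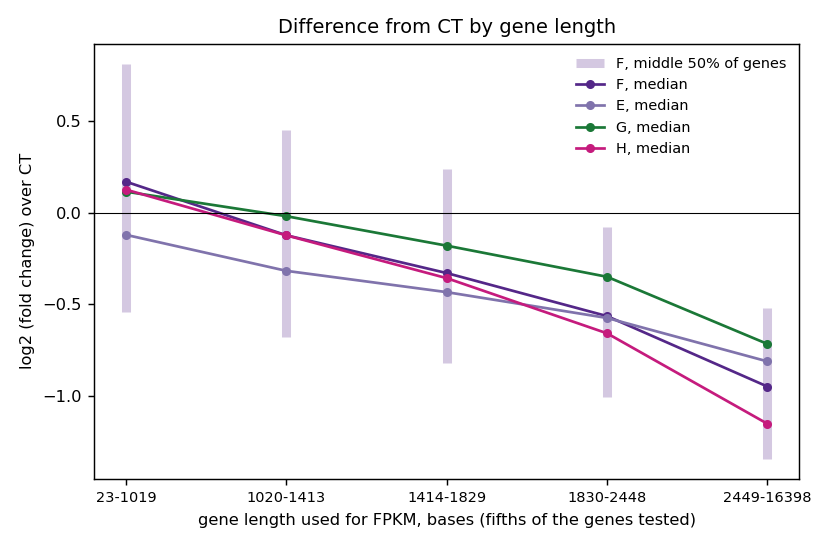
Median log2 (fold change) over CT of the genes tested, in 5 classes of gene length in bases on the x axis, for F, E, G and H, with the middle 50% of the genes of F as bars. The F median goes from 0.17 in the shortest class to -0.95 in the longest.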

How the data were processed

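The authors aligned paired-end reads with TopHat2 2.0.12 and Bowtie2 2.2.3, counted with HTSeq 0.6.1, called DEGs with DESeq 1.18.0 and deposited FPKM values for each locus, as the labels' processing notes and the paper's methods say. Raw counts were not used here, so log2(FPKM + 1) was tested with limma 3.58.1 (trended prior) in R 4.3.3. Whole fragment numbers were recovered from the steps of the FPKM values, within 0.02 of a whole number. They came out whole with the listed length for 22759 of 30180 detected loci (75.4%), and with a searched length for 7421. Recovered fragments give floors that cover counting error only. On these fragments voom called 6426 genes.

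Groups follow the description codes of the samples. Genes were named by a rule: the genes of the study's list by role, up to 4 genes with the largest change in each pathway list (with relatives of the same match, gene families within a list and a few single members chosen after their values were seen), 2 rises and 2 falls with no name, and the 5 genes most like CHS1. The members of the lists, the lists and the tests were chosen with earlier results of these data known. Of 36089 annotated loci, 32112 had an entry in the reference table, which is of another assembly, so no positions are given. The tests were tried on simulated data. The alternatives were a pseudocount of 0.1, no filter, one fit of all 10 libraries, a replicate block, quantile normalization, voom, no minimum fold change, each library left out and, added after seeing the data, a spline of gene length with 4 degrees of freedom. The correlation of replicate differences between F and CT was -0.07, so it gave no sign that replicate numbers pair F with CT. Pairing among the other groups was not examined in this way. Whether replicates came from separate roots is not given in the sources used here beyond the mixing. Tables were made with pandas 2.3.3 and plots with matplotlib 3.10.9.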

Additional observations from a re-analysis of the deposited data

How the results depend on the processing

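In F against CT, 5789 DEGs became 3289 in one fit of all 10 libraries and 3448 with the length adjustment, and the others, including the replicate block (5770 DEGs), stayed between 4257 and 7891. The 4257 lower genes became 2104 in one fit of all libraries, 2135 after quantile normalization and 1749 with the length adjustment. Leaving out single libraries gave 0 to 5732 DEGs, 0 to 1521 higher and 0 to 4305 lower, where 0 arose without either CT replicate. F against H called 263 genes, and 7 without the filter, 1259 in one fit of all libraries, 991 with the replicate block, 468 after quantile normalization, 0 by voom on recovered fragments, 543 with the length adjustment and 0 to 0 without single libraries. F against E called 68 genes, and under the same settings 13, 879, 582, 147, 0 and 157, with 0 to 17 without single libraries. The cause of these shifts was not tested, and voom left 2680 and 1929 genes at an unadjusted p below 0.05 with the minimum fold change. Thus each call of F against H or E named above holds only for some settings.

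Of the 96 genes named in F against CT, 3 values changed sign outside the settings that leave out a library, all in genes that were not called: LOC108223993 (from -0.23 to 0.27 after quantile normalization and 0.32 with the length adjustment) and LOC108224600 (from -0.04 to 0.056 after quantile normalization). Without single libraries, 8 genes that were not called changed sign: LOC108223993 ranged from -0.48 to 0.023, LOC108224600 from -0.34 to 0.25, LOC108224331 from -0.24 to 0.28, LOC108195143 from -0.78 to 3.92, LOC108209070 from -4.88 to 1.11, LOC108210672 from -0.64 to 1.19, LOC108214501 from -1.43 to 0.44 and LOC108227515 from -0.43 to 0.53.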
